A study of Mus musculus with 4 samples.

Results

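The 35 genes described here encode proteins that bind RNA and steer its splicing: 11 Srsf genes, 19 Hnrnp genes, and Tardbp, Taf15, Ewsr1, Tra2a and Tra2b. They were selected by name, and all 35 were found among the 21887 protein-coding genes of the nuclear chromosomes in the RefSeq table used for positions (assembly GRCm38.p6, the same chromosome coordinates as mm10). The measurement was chromatin immunoprecipitation followed by sequencing (ChIP-seq) for Isl1, a LIM-homeodomain transcription factor, in the genital tubercle, the embryonic outgrowth that becomes the penis or clitoris. Tissue came from wildtype CD1 mouse embryos at E14.5 (embryonic day), with no mutation or treatment in any group. The series held 2 Isl1 ChIP samples, made with a rabbit monoclonal anti-ISL1 antibody, and 2 samples of input DNA, and the peak lists of the ChIP samples were used here. The labels do not say how many embryos went into a sample, of which sex, or whether the replicates came from separate pools.

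Splicing removes introns from a nascent transcript, and which exons are kept depends on RNA-binding proteins that attach near splice sites. SR proteins, encoded by the Srsf genes, mostly bind enhancer sequences within exons and promote their use, while hnRNPs coat the nascent transcript and often block splice sites. TDP-43 (Tardbp) binds UG-rich RNA and keeps cryptic exons out of transcripts, EWSR1 and TAF15 are related proteins that bind RNA and accompany RNA polymerase II, and TRA2A and TRA2B are SR-like activators. Most of these genes are expressed widely across tissues.

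A peak was placed at a gene when its midpoint lay inside the gene or within 10 kb of it, and a shared region is a stretch where peaks of the replicates overlapped by at least 1 bp. Its position is the midpoint of that overlap. Replicate 1 held 8860 peaks and replicate 2 held 10162, which formed 6834 shared regions. Of the 35 genes, 4 had a shared region: Tardbp, Taf15, Ewsr1 and Hnrnpk, with 6 regions between them. That is 11.4% of the genes (Wilson 95% interval 4.54 to 25.95%, counting error alone), against 14.3% of all protein-coding genes, so the number of genes with a region was near the background. At each of the 4 genes a region lay within 1 kb of the listed start, and at Tardbp and Taf15 it was among the highest scores of both lists.

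The sequences next to these starts are shown because the regions lie on or beside them. They are from the RefSeq promoter table (GRCm38.p6), which gives 250 bases before and 50 after each listed start. The Taf15, Ewsr1 and Tardbp stretches printed here hold only bases outside the gene itself. Stretches of 30 bases printed later lie inside gene models. Capitals mark matches to the words searched, which are given further on. The Taf15 stretch (chr11:83472858-83473072, plus strand) lay wholly within the shared region. The Ewsr1 stretch (chr11:5099108-5099272, minus strand) ran up to the base before a start of Rhbdd3 on the other strand and also lay wholly within its region. The Tardbp stretch (chr4:148627085-148627246, minus strand) is the flank at which its region stopped, and none of it was in the region.
Taf15: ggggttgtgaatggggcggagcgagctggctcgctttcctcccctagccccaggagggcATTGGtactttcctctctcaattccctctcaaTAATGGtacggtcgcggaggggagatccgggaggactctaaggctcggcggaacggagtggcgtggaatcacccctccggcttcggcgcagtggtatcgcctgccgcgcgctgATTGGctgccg
Ewsr1: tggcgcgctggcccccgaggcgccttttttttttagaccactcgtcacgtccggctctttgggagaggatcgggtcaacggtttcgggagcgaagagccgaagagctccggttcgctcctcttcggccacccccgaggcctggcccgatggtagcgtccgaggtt
Tardbp: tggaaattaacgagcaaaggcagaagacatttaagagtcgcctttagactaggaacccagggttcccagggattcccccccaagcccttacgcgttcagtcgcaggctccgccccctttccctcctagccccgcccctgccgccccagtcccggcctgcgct

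At Tardbp (chromosome 4, 148612382 to 148627084, minus strand), each replicate had 1 peak, from 148626742 to 148627084 with a score of 1420 in replicate 1 and from 148626764 to 148627075 with a score of 1271 in replicate 2. The score is the authors' own whole number for a peak and serves here to rank peaks within a list. These peaks ranked 5 among the 8860 of replicate 1 and 10 among the 10162 of replicate 2, so both lists place Tardbp close to their top. The midpoints differed by 6 bp, and the replicate 2 peak (312 bp) lay wholly within the replicate 1 peak (343 bp). The upstream edge of the joined region, at 148627084, was the first base of the gene model in the direction of transcription. The region covered the listed start at 148626996, reaching 88 bp upstream and 254 bp downstream of it, all inside the gene model. The 30 bases directly before that start, inside both peaks (chr4:148626997-148627026, minus strand), show what the region covers there.
Tardbp before the start: cgaagccatctaccgcgttacgtaggggga

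At Taf15 (chromosome 11, 83473073 to 83506743, plus strand), replicate 1 had a peak from 83472757 to 83473094 with a score of 1271 and replicate 2 one from 83472757 to 83473113 with a score of 1143. Each ranked 19 in its list. The region lay just upstream of the gene. Its midpoint was 148 bp outside the gene and 183 bp before the listed start at 83473108. The replicate 1 peak stopped 14 bp short of that start and the replicate 2 peak reached 5 bp past it. No other protein-coding gene was within 5 kb; the nearest was the metalloproteinase gene Mmp28, 9.89 kb away.

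Ewsr1 (chromosome 11, 5069687 to 5099107, minus strand), whose human counterpart is the fusion partner in Ewing sarcoma, had 2 shared regions. The one at its start had peaks from 5099066 to 5099474 with a score of 429 in replicate 1 and from 5099063 to 5099455 with a score of 270 in replicate 2, at ranks 554 and 1249. Its midpoint was 164 bp upstream of the listed start at 5099096. It was 13 bp from a start of Rhbdd3, a rhomboid-family gene on the other strand, at 5099273. The region covered both starts, which are 177 bp apart. The Rhbdd3 gene model reaches from 5098282 to 5106100, so the midpoint of the region lay inside it. The second region, from 5065315 to 5065460, lay 4.30 kb beyond the far end of Ewsr1 with scores of 76 and 108, and was 43 bp from an end of Gas2l1. Neither region was thus closest to Ewsr1: counting a region only for its nearest protein-coding gene left Ewsr1 with 0. By that rule 3 of the 35 genes had a region, against 11.3% of all protein-coding genes. Hnrnpk stayed among these 3 through a tie, since its regions also lie inside the overlapping gene Rmi1.

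Hnrnpk (chromosome 13, 58391132 to 58403343, minus strand) encodes a KH-domain hnRNP that prefers C-rich RNA. It had 2 shared regions inside the gene, 68 bp apart, and each list called them as separate peaks. The first, from 58402531 to 58402691, had scores of 165 and 206 in replicates 1 and 2. The second, from 58402760 to 58402922, had scores of 264 and 117. The stronger of the pair was therefore the second in replicate 1 and the first in replicate 2. Both lay upstream of the listed Hnrnpk start at 58402117, by 492 and 723 bp, within the part of the gene model that reaches past that start. This stretch is also inside Rmi1, a genome stability gene on the other strand with listed starts 131 and 480 bp from that of Hnrnpk. The region midpoints were 12 and 243 bp from the farther Rmi1 start, nearer than to the Hnrnpk start. The first region covered the farther Rmi1 start, and the 30 bases before that start (chr13:58402567-58402596, plus strand), all within the region, are given to show the shared stretch.
Hnrnpk region, before the Rmi1 start: ctgctcacgtgtgccgggaggggcgactgc

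**Figure D1:**
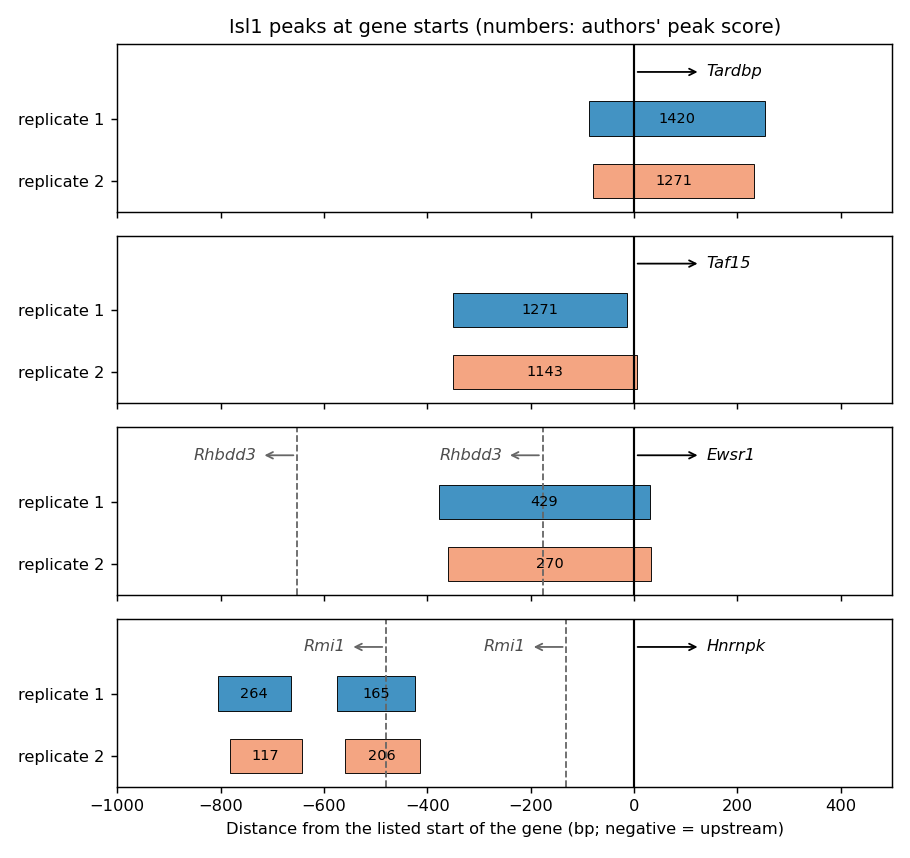
Peaks of each replicate (bars, with the authors' score) at the 4 genes, by distance in bp from the listed start (solid line; negative is upstream). Dashed lines are starts of a neighbour on the other strand. Peaks cover the start of Tardbp and of Ewsr1 in both replicates, stop 14 bp before or pass 5 bp over that of Taf15, and lie upstream of that of Hnrnpk, with midpoints at 492 and 723 bp.

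Scores at the 6 regions ran from below the median of all shared regions to near the top of the lists. In replicate 1 they were between 76 and 1420, where all shared regions had a median of 107 (quartiles 69 and 194). In replicate 2 they were between 108 and 1271, where the median was 127 (quartiles 82 and 217). By the lower score of the replicates, Tardbp ranked 7 and Taf15 ranked 16 among 6834 regions. The Ewsr1 start region ranked 882, those at Hnrnpk 1720 and 2607, and the region beyond Ewsr1 4069. High scores at gene ends were general in these lists: the 932 shared regions within 1 kb of any protein-coding gene end had median scores of 253 and 239, and, ranked by the lower score, 61 of the top 100 were among them.

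**Figure D2:**
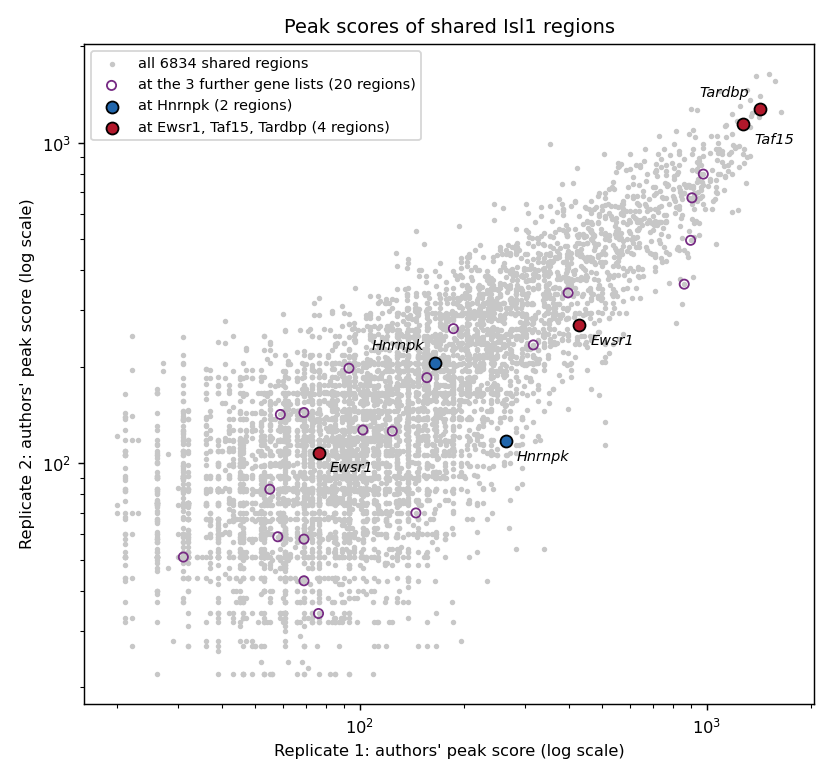
Each point is a shared region, with its score in replicate 1 (x axis) and replicate 2 (y axis), both on log scales and without units. Grey points are all 6834 regions, filled points the 6 at the genes described, and open points the 20 at 3 further gene lists. Tardbp (1420 and 1271) and Taf15 (1271 and 1143) lie at the upper right and the region beyond Ewsr1 (76 and 108) among the bulk of the grey points.

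By gene family, 0 of 11 Srsf genes had a shared region within 10 kb (Wilson 95% interval 0 to 25.9%), 1 of 19 Hnrnp genes did (Hnrnpk, 5.26%, 0.935 to 24.6%), and 3 of the remaining 5 did (60.0%, 23.1 to 88.2%). Of all protein-coding genes 14.3% had one, a share inside the Srsf and Hnrnp intervals and below that of the remaining 5. Median gene lengths were 7.29 kb (Srsf), 13.7 kb (Hnrnp) and 21.5 kb (remaining 5), against 17.2 kb over all genes. The role of length was not tested. In replicate 1 alone, 3 Hnrnp genes had a peak, and 6 of the 35 genes in all, against 17.3% of all protein-coding genes. In replicate 2 alone it was the same 4 genes as for shared regions, against 17.6%. The intervals of the families overlap, and differences between families were not tested, since the families are small and were listed with earlier results of these data known.

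All 4 genes with a region within 10 kb had one within 1 kb of a gene end (11.4% of the 35, 4.54 to 25.95%). Over all protein-coding genes 4.90% had one, a share inside that interval. Among the 33 genes with a listed start, 4 had a region within 1 kb of it (12.1%, 4.82 to 27.3%), against 4.93% of protein-coding genes with a listed start. The lower end of that interval lies just under the background. A region that covered a listed start was found at 3 of the 33 (Tardbp, Taf15 and Ewsr1, 9.09%, 3.14 to 23.6%), against 2.73%. The Taf15 start counts here through the replicate 2 peak. The 35 genes are 2.68 to 39.2 kb long, with a median of 14.2 kb against 17.2 kb over all genes. Among the 12647 protein-coding genes within that range of lengths, 10.6% had a region within 10 kb and 5.19% within 1 kb of an end.

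**Figure D3:**
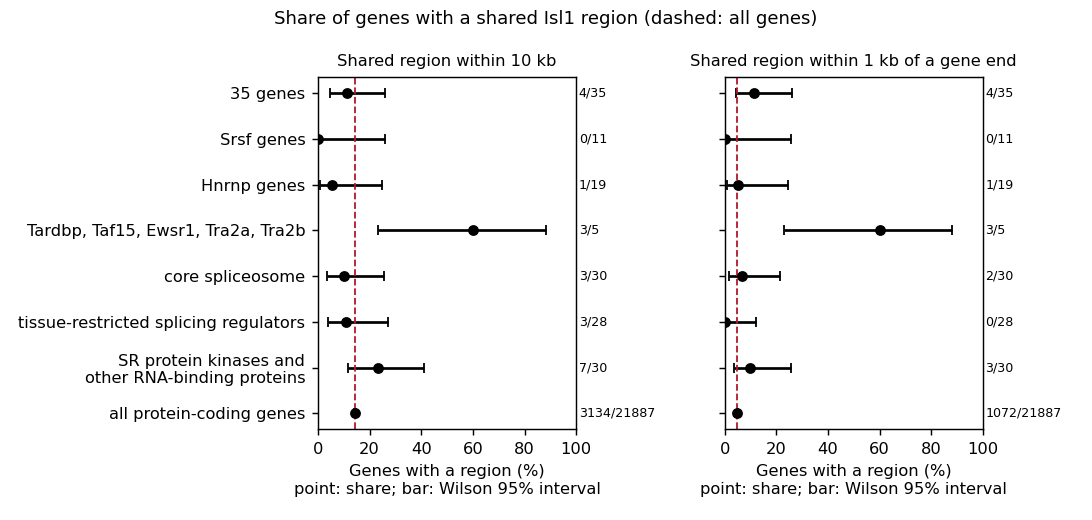
Share of genes (x axis, %) with a shared region within 10 kb (left) or within 1 kb of a gene end (right), for the 35 genes, their families, 3 further lists and all protein-coding genes (dashed line, 14.3% and 4.90%). Bars are Wilson 95% intervals and the numbers give genes with a region over genes in the list. The 35 genes stand at 11.4% on both sides.

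Of the peaks at the 35 genes, 6 of 8 in replicate 1 were shared (75.0%, Wilson 95% interval 40.9 to 92.9%), against 78.5% of that whole list. In replicate 2, 6 of 6 were (61.0 to 100%), against 68.3%. The 2 unshared peaks belonged to Hnrnp genes. One was inside Hnrnpd, which encodes AUF1, a protein that binds AU-rich elements of short-lived messenger RNAs. It lay at chromosome 5, 99967839 to 99968040, 11.2 kb from the nearer gene end, with a score of 53, at percentile 20.6 of replicate 1, and the nearest replicate 2 peak was 116 kb away. The other was 6.13 kb from Hnrnpl, an hnRNP that binds CA-rich RNA, at chromosome 7, 28802354 to 28802476. Its score of 128 was at percentile 66.7, and the nearest replicate 2 peak was 204 kb away. Read depth is not given in the lists, so whether signal under the threshold was present there in replicate 2 is unknown.

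The other 29 genes had no peak of either list within 10 kb, which does not show that they were unbound, since a site under the authors' threshold is not listed. The distance from each gene to its nearest shared region had a median of 101 kb over the 35 genes (quartiles 42.4 and 347 kb), against 167 kb over all protein-coding genes (quartiles 45.7 and 440 kb). Within 100 kb, 16 of the 35 had a region (45.7%, 30.5 to 61.8%), against 38.1% of all genes, and within 500 kb 30 did (85.7%, 70.6 to 93.7%), against 78%. A gene of the 35 had a median of 3 regions within 500 kb, and a protein-coding gene in general 2. Within 50 kb the count was 10 of the 35 (28.6%, 16.3 to 45.1%), against 26.3%. Each of these background shares lay inside the interval beside it.

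Among the SR protein genes the nearest region was 32.4 kb from Srsf11 and 47.5 kb from Srsf9. It was 93.8 kb from Srsf10, a splicing repressor when dephosphorylated, and 100 kb from Srsf1, the founding member known as SF2/ASF, while Srsf5 was 101 kb from its own. The distances were 273 kb at Srsf7, an SR protein with a zinc knuckle, 352 kb at Srsf6 and 360 kb at Srsf4. At Srsf2 (SC35, a marker of nuclear speckles) it was 566 kb, at Srsf3 638 kb and at Srsf12 677 kb. Srsf genes thus ranged from 32.4 to 677 kb with a median of 273 kb, against 167 kb over all protein-coding genes. Of the 11, 3 had a region within 100 kb (27.3%, 9.75 to 56.6%), against 38.1% of all protein-coding genes, a share inside that interval.

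Several of the regions nearest to SR protein genes sat at an end of another gene. The region nearest to Srsf9 (scores 203 and 185) was 36 bp from an end of Coq5, and that nearest to Srsf7 (238 and 166) was 56 bp from an end of Sos1. The region nearest to Srsf4 (110 and 83) was 42 bp from an end of Gmeb1. The region nearest to Srsf11 was weak, with scores of 31 and 68, and lay inside Lrrc7.

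Hnrnp genes had a median distance of 105 kb. After Hnrnpk, the closest were Hnrnpa1 at 16.3 kb and Hnrnpa0 at 19.8 kb, which encode A/B-type hnRNPs. The Hnrnpa1 region (scores 168 and 104) lay inside Cbx5, the gene of the heterochromatin protein HP1-alpha, whose start is 545 bp from that of Hnrnpa1 on the other strand. The Hnrnpa0 region (484 and 333) was between genes, 9.25 kb from Idnk. Hnrnpa3 followed at 34.1 kb (211 and 317, inside Nfe2l2), then Hnrnpul2 at 37.3 kb (107 and 144, 75 bp from an end of Ubxn1). These 4 were the Hnrnp genes that gained a region when the limit was widened to 50 kb, besides Srsf9 and Srsf11.

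At 53.4 kb from Hnrnpc, whose protein binds U-rich tracts, the nearest region was strong in both lists (709 and 619) and lay inside Zfp219. The distance was 62.3 kb at Hnrnpul1, 66.1 kb at Hnrnpab and 94.0 kb at Hnrnpm. It was 105 kb at Hnrnpd, 126 kb at Hnrnpa2b1, 127 kb at Hnrnph3 and 133 kb at Hnrnpll, where the region (797 and 681) lay inside Atl2, 82 bp from its end. It was 306 kb at Hnrnph2, 347 kb at Hnrnpr (the region also nearest to Srsf10) and at Hnrnpl, and 374 kb at Hnrnpf. At Hnrnpu, the scaffold attachment factor SAF-A, it was 531 kb, and at Hnrnph1 it was 662 kb. Of the SR-like activators, Tra2b was 75.5 kb from a region with scores of 523 and 716, which was itself 39.8 kb from its nearest gene, Etv5, and Tra2a was 130 kb from a region with scores of 76 and 80.

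**Figure D4:**
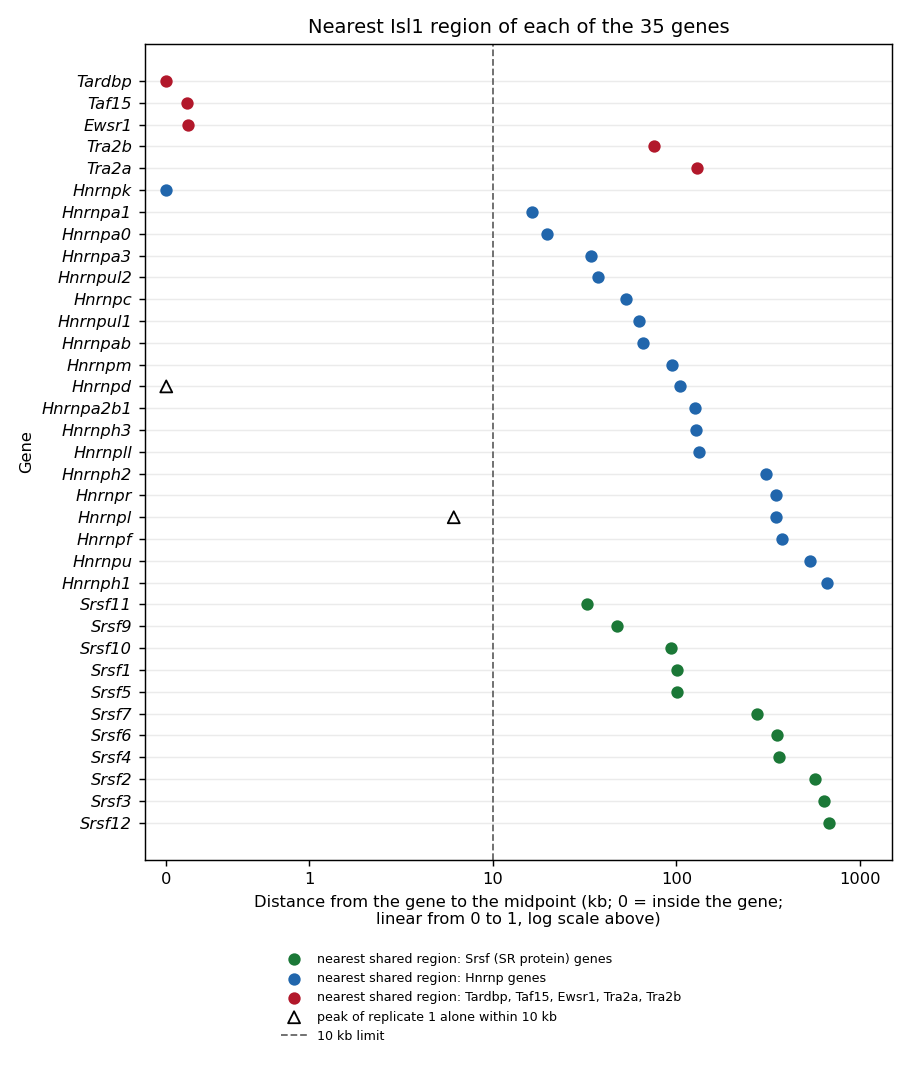
Distance in kb from each of the 35 genes (rows) to the midpoint of its nearest shared region (filled points, coloured by family; 0 is inside the gene; linear to 1 kb, log scale above), with the 10 kb limit dashed. Triangles are the peaks of replicate 1 alone at Hnrnpd and Hnrnpl. The 4 genes at the left are within 0.153 kb, and the next is Hnrnpa1 at 16.3 kb.

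The promoter windows were searched on both strands for 7 words. The word CTAATG and the word TAATGG hold the core bound by LIM-homeodomain proteins and can overlap each other, leaving out the first base of the former and the last of the latter. The others were the CCAAT box, the ETS word CCGGAAG, the CRE word TGACGTCA, the NRF1 motif and the ZNF143 motif. Windows were listed for 33 of the 35 genes (45 windows), without Hnrnpll and Hnrnpul2. Among the 4 genes with a region, TAATGG occurred at Taf15 alone, 159 bp before the start, at 83472949 to 83472954. It lay inside both peaks, 27 bp from the midpoint of the region. The same window held CCAAT on the other strand (printed as ATTGG) at 191 and 46 bp before the start. CCAAT was also in the Hnrnpk window, and the windows of Tardbp and Ewsr1 held none of the 7 words. The windows cover these regions in part: 256 of 357 bp at Taf15, 284 of 412 bp at the Ewsr1 start and 138 of 343 bp at Tardbp. The Hnrnpk window holds 0 bp of either Hnrnpk region, so the regions themselves were not searched in full.

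TAATGG was in the windows of 3 of the 33 genes (Taf15, Srsf4 and Hnrnpd), or 6.67% of their windows, against 6.46% of the 21263 windows of protein-coding genes and 3.55% of the 817 windows that overlapped a shared region. CTAATG was at Hnrnph2 and Hnrnpm, in 4.44% of windows against 6.44% (4.41% of those at a region). CCAAT was in 51.1% of windows against 38.2% of all windows, and at 19 of the 33 genes (57.6%) against 42.3% of genes. It was in 33.0% of windows at a region. CCGGAAG was in 22.2% of their windows, at Hnrnpd, Hnrnpf, Srsf4, Srsf5, Srsf7 and Srsf11, against 11.6% of all windows and 17.9% of those at a region. Some of these genes have several windows with it, and per gene the share was 18.2% (6 of 33) against 12.9%. TGACGTCA was at Tra2a (2.23% of all windows) and the NRF1 motif at Srsf11 (1.33%), while the ZNF143 motif, in 0.423% of all windows, was at none. Windows of the same gene can overlap, and a match says only that the letters are there.

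The windows were rich in G and C, with a median of 66.3% over the 45, against 56.3% over all protein-coding windows and 61.3% over those at a shared region. Windows of the 4 genes with a region had 62.0 to 70.7%, within the range of the others (48.3 to 79.7%). Starts that face another gene's start on the opposite strand within 1 kb upstream were found at 8 of the 33 genes (24.2%, 12.8 to 41.0%), against 8.48% of protein-coding genes with a listed start. Over all genes with a region within 1 kb of a start, 204 of 863 (23.6%) had such a partner. Of the 4 genes here, Ewsr1 (with Rhbdd3) and Hnrnpk (with Rmi1) had one and Tardbp and Taf15 did not. The other 6 were Srsf2, Srsf11, Hnrnpa1, Hnrnpa2b1, Hnrnph2 and Hnrnph3, which had no region within 10 kb.

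Further RNA-processing genes were counted in 3 lists, beside the shares of all protein-coding genes, 14.3% for the 10 kb limit and 4.90% for a region at a gene end (1 kb). Of 30 core spliceosome genes, 3 had a region within 10 kb (10%, 3.46 to 25.6%) and 2 had one within 1 kb of an end (6.67%, 1.85 to 21.3%). Both intervals hold their background. At Snrpc, a protein of the U1 particle that recognises 5′ splice sites, it had scores of 316 and 234, with its midpoint 7 bp outside the gene. The replicate 2 peak covered the start and the replicate 1 peak ended 4 bp before it. At Sf3b3, a subunit of the U2 particle, it was 154 bp from the gene with low scores (31 and 51). At Snrnp70, also of the U1 particle, it was 9.38 kb away (55 and 83).

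Of 28 tissue-restricted splicing regulators, 3 had a region (10.7%, 3.71 to 27.2%). None had one within 1 kb of an end (0 of 28, 0 to 12.1%), against 4.90% of all genes. Both intervals hold their background. The genes of this list are long, with a median of 117 kb, and most of their regions were in the gene body. Celf2 had 4 inside it, the strongest with scores of 186 and 263, Rbfox1 had 2 inside it (up to 102 and 127), and Mbnl2 had 2 inside and 1 at 3.11 kb from it (up to 69 and 144). The Celf2 region with scores of 156 and 185 had its midpoint 847 bp upstream of a listed start inside the gene.

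Of 30 SR protein kinases and other RNA-binding proteins, 7 had a region (23.3%, 11.8 to 40.9%), and 3 had one within 1 kb of an end (10%, 3.46 to 25.6%). Both intervals again hold their background. The strongest was at Raly, an hnRNP C relative, where scores of 976 and 798 were 99 bp past the start. Srpk2, a kinase that phosphorylates SR proteins, had a region just upstream of one of its starts inside the gene (897 and 496), with its midpoint 153 bp before that start. The replicate 1 peak reached the start with its last base and the replicate 2 peak stopped 17 bp short. Tnpo1, the nuclear import receptor transportin-1, had a region that covered a start inside the gene in both replicates (860 and 362), and it had a weaker region as well (69 and 58). The region at Pcbp1, a poly(C)-binding protein related to hnRNP K, was 324 bp upstream of the start (124 and 126), and that of Nono, a paraspeckle protein, was 9.64 kb away (398 and 340) inside Zmym3.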

How the data were processed

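Isl1 ChIP-seq peak lists of 2 replicates were analysed, and the 2 input samples were not analysed here. The labels' protocols give 1% formaldehyde (20 minutes), sheared fragments of 150 to 400 bp, 500 µg of chromatin with 5 µg of antibody, and single-end sequencing at 75 bp. The submitters' processing notes name Trimmomatic 0.35, Bowtie2 2.2.6, MACS2 2.1.0.20150731, bedtools and build mm10, without settings. Each line of the deposited lists gives a position and the authors' whole-number score, with its formula and calling threshold not given in the sources used here. Scores were used for ranking within a list. Depth is unknown, so a difference in depth could change which weak peaks are listed.

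Genes were those of RefSeq (GRCm38.p6), with 13 mitochondrial genes left out. Starts and strands came from the RefSeq promoter table, where a gene can have several starts or none. Overlap and assignment were computed in Python 3.11.15 (pandas 2.3.3, scipy 1.17.1) and tested on simulated data. Intervals are Wilson 95% and cover counting error alone. No significance test was made: counts stand beside the share of all genes. The 35 genes, the 3 further lists and the 7 words were chosen with earlier results of these data known. All 35 genes were described, and up to 6 genes of each further list were named by the lower score of the replicates, apart from what is not reported here.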

Additional observations from a re-analysis of the deposited data

How the results depend on the processing

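The 4 genes with a region were the same with at least 50% reciprocal overlap, with scores of at least 50 or 100 in each list, by any overlap of the joined span, with limits of 5 kb and 1 kb, and in replicate 2 alone. Leaving out a replicate gave 4 to 6 genes with a site and 6 to 8 sites at the 35 genes, 1 to 3 Hnrnp genes (3 without replicate 2), 0 to 0 Srsf genes and 3 to 3 of the remaining 5. With a limit of 50 kb, 10 genes had a region, with 13 regions in all, among them 2 Srsf and 5 Hnrnp genes, while the share of all protein-coding genes rose to 26.3%. Counting a region only for its nearest gene left 3 genes, since Ewsr1 lost both regions. Hnrnpk kept both of its regions through a tie with Rmi1. Over these alternatives the share of all genes lay between 9.34 and 26.3%. Of 64 values of the comparisons under alternatives, 59 stayed within 1.5 times the value given or within its interval, and of 350 counts at single genes 339 did. Many of these values could not change. Most genes, all Srsf genes among them, had no peak of either list within 10 kb. Stricter settings or a single replicate had to leave their counts at 0. These shares therefore say little about how stable the results are. No paired analysis was possible because replicate numbers are shared only between ChIP and input, and input was not analysed here. The number of replicates (2) and the unknown depth limit what a missing peak can show.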
